A study of Mus musculus with 26 samples.

Results

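The plasminogen activator system was examined through 6 genes in mouse motor neuron spheroids: the activators urokinase (Plau) and tissue plasminogen activator (Plat), the urokinase receptor (Plaur), the inhibitors protease nexin-1 (Serpine2) and neuroserpin (Serpini1), and the endocytic receptor Lrp1. They are 6 of the 56941 genes in the deposited tables and were picked by symbol. The set was chosen from measured values, because Plau had been seen higher in the low-intensity than in the control libraries of these same data. For that reason the low-intensity against control values of all 6 genes, and every Plau value that uses control or low-intensity libraries, are given here as a description with no p-value. Calls in that contrast are only counted, and nothing is read from them.

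Both activators are secreted serine proteases that cut plasminogen into plasmin, the enzyme that degrades fibrin and other matrix proteins. Urokinase acts mainly at the cell surface, held by its receptor, while tissue plasminogen activator is the main form released by neurons and works best on fibrin. Serpins trap the active proteases, neuroserpin mostly the tissue type and protease nexin-1 also thrombin and urokinase, and Lrp1 takes up the complexes for degradation. In developing nervous tissue these proteins are known from neurite outgrowth and synaptic remodelling.

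RNA sequencing covered 26 libraries in 5 groups, all made from mouse embryonic stem cells of the line HBG3, which carries the HB9::GFP reporter of motor neurons and is labelled with the genotype "heterozygous blastocysts". The stem cells were expanded on feeder cells and differentiated in suspension with retinoic acid and purmorphamine, received ciliary and glial derived neurotrophic factors from day 5, and were placed as spheroids of about day 8 on a fibrin platform. The groups were an array of magnets in silicone moved daily at 4 Hz for 30 min (actuated, n = 4), such an array that was never moved (static, n = 4), groups labelled low intensity biochem (n = 6) and high intensity biochem (n = 6), and their biochemical controls (n = 6). In the design text, medium came from optogenetic muscle, stimulated with light or left unstimulated, but its sample names match neither intensity label, so the groups are named by intensity only. All groups rest on 1 stem cell line, and no label says that replicates came from separate differentiations. The p-values therefore measure the spread between these libraries, which may be technical.

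Total counts per library ranged from 1536 to 13162635, and 5 libraries had at most 1000000 counts on protein-coding genes (control 4, low intensity 6, high intensity 4 and 5, static 3). In low intensity 6, which held 1536 counts in all, every member was at 0. All 6 members passed the filter on low counts. Levels in CPM (counts relative to library size, scaled by edgeR's trimmed mean of M values) are given for the 21 deeper libraries, and fitted differences are given for all 26 libraries and, in most cases, for the deeper subset. Where groups are said not to overlap, the share of all genes that separate between such small groups was not computed. Such a separation is a description and no trait particular to the gene. The 6 motor neuron markers (Mnx1, Isl1, Lhx3, Chat, Slc18a3 and Slc5a7) were each detected, with a summed level of 70.5 to 162 CPM in the deeper libraries. The 6 astrocyte or radial glia markers summed to 2126 to 4478 CPM in the same libraries, so the spheroids also held RNA typical of glia. In such bulk samples fewer cells of a type and less RNA per cell cannot be told apart.

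The coding stretches below show what the activators share, a serine protease active site, while they were measured at very different levels. Each is 48 bases of the main GENCODE M21 transcript of its gene (GRCm38), printed 5′ to 3′, with capitals on the 18 bases that encode the conserved motif around the catalytic serine.
Plau, coding bases 1111 to 1158: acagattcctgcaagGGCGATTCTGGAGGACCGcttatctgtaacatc
Plat, coding bases 1507 to 1554: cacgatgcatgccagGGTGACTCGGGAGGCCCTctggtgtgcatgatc
The stretches were identical at 31 of 48 bases and, within the capitals, at 13 of 18.

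Urokinase was the member with the widest spread between groups. In the 5 deeper control libraries Plau (ENSMUSG00000021822) was at 3.74, 2.10, 1.54, 2.34 and 3.77 CPM, that is, at 4 to 13 counts per library. In the 5 deeper low-intensity libraries it was at 27.7, 16.9, 4.09, 13.3 and 96.9 CPM. The groups did not overlap, but low intensity 3 lay close to the highest control while low intensity 5 alone held 285 of the group's 463 counts (61.6%). The means were 2.70 ± 1.01 CPM (SD, n = 5) in the controls and 31.8 ± 37.4 (SD, n = 5) at low intensity, and 15.5 ± 9.75 (SD, n = 4) at low intensity without library 5. The fitted log2 difference was 3.52 (SE 0.62) over all libraries and 3.52 (SE 0.65) over the deeper ones, and 2.51 without low intensity 5. In the 5 shallow libraries Plau had 0 counts (control 4 and low intensity 6), 8 and 3 (high intensity 4 and 5) and 1 (static 3). This is the contrast the set was chosen on: 1 of the 6 members, Plau, passed edgeR's threshold there, where 0.0268% of all genes tested did with all libraries and 0.597% with the deeper ones, and nothing is read from that count. It became 0 with limma voom, with the replicate number as a block, on both log2 TPM scales and without low intensity 5.

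**Figure D1:**
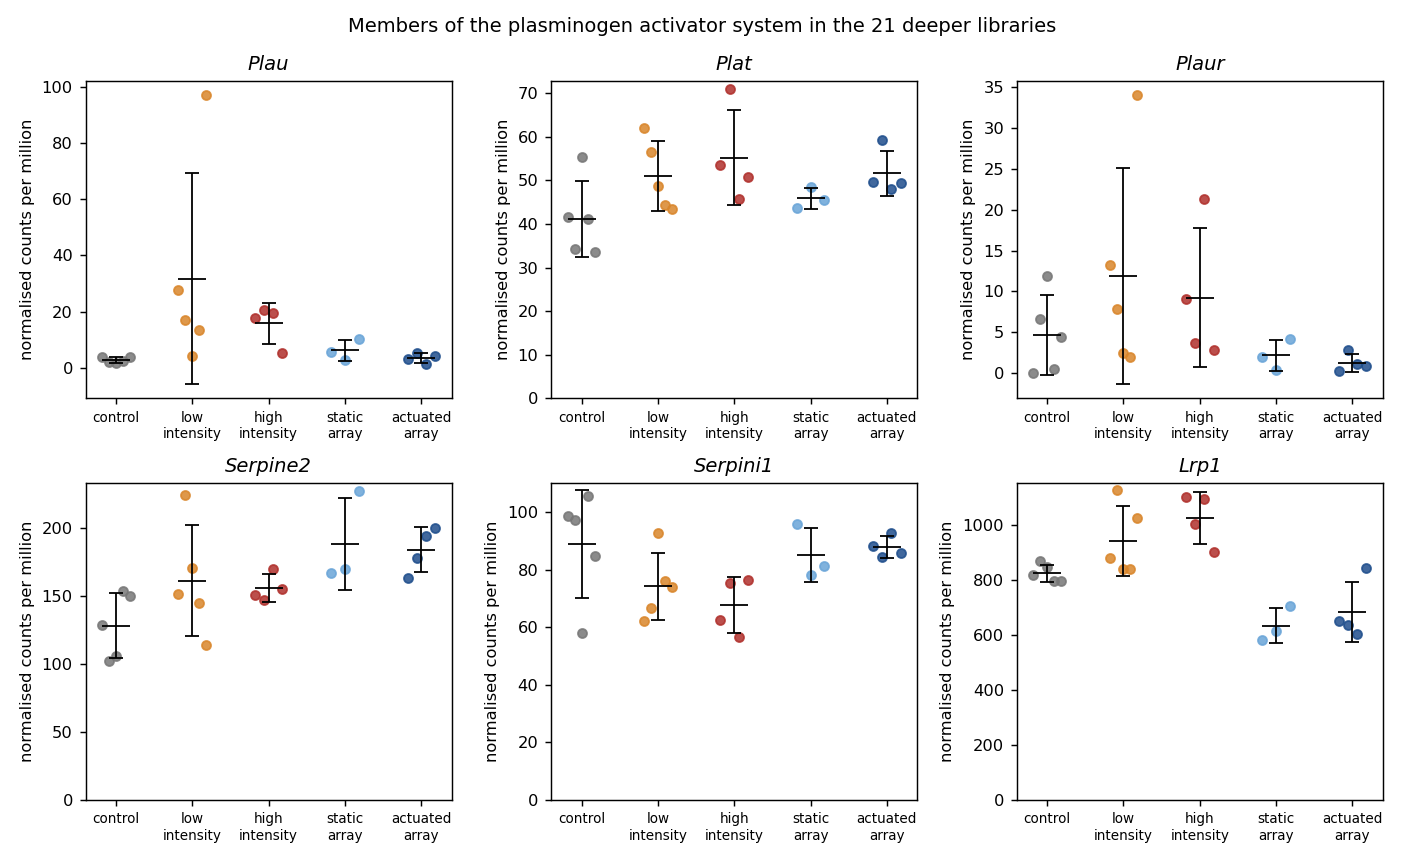
Normalised CPM (vertical axis, from or near 0) of each gene in the 21 deeper libraries, by group. Points are libraries, and the dash and bar are the group mean and SD (n = 5, 5, 4, 3 and 4 from left to right). Plau reached 96.9 CPM in 1 low-intensity library and stayed under 4 in the controls, whereas Plat, Serpine2, Serpini1 and Lrp1 kept within a narrow band.

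At high intensity Plau was at 17.7, 20.7, 19.6 and 5.23 CPM in the 4 deeper libraries, all above the highest control, with a mean of 15.8 ± 7.15 CPM (SD, n = 4). The log2 difference from control was 2.54 (SE 0.61) over all libraries and 2.50 (SE 0.67) over the deeper ones, again a description since the controls were used in the choice. Against low intensity the log2 difference of Plau was −0.98 (SE 0.54) over all libraries, and the groups overlapped. Both intensity groups are set against the same controls, so their differences from control are not independent of each other.

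On the arrays Plau was low. It was at 5.54, 2.90 and 10.1 CPM in the 3 deeper static libraries and at 3.26, 5.26, 1.32 and 4.27 CPM in the 4 actuated ones. The array groups overlapped, and their log2 difference (actuated minus static) of −0.64 (SE 0.65) over all libraries and −0.78 (SE 0.67) over the deeper ones did not pass edgeR's test (adjusted p = 1 for both). Static libraries exceeded controls by 1.09 (SE 0.65) on the log2 scale over all libraries, with overlap between the groups, which is given as a description.

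Tissue plasminogen activator varied little. Plat (ENSMUSG00000031538) ranged from 33.6 to 70.9 CPM over the 21 deeper libraries, a 2.11-fold range against 73.2-fold for Plau. The range of Plau runs from 1.32 CPM (12 counts) in actuated 3 to 96.9 CPM in low intensity 5. That library belongs to a group used in the choice of the set, so the contrast with Plat is a description. Group means were 41.2 ± 8.74 CPM in controls (SD, n = 5), 51.0 ± 8.03 at low intensity (SD, n = 5), 55.2 ± 11.0 at high intensity (SD, n = 4), 45.9 ± 2.45 on the static array (SD, n = 3) and 51.6 ± 5.15 on the actuated array (SD, n = 4). Every pair of groups overlapped, static with actuated only just, as the highest static library was at 48.5 CPM and the lowest actuated one at 48.0. Against control, the high-intensity value of Plat depended on the shallow libraries: the log2 difference was −0.12 (SE 0.36) over all 26 and 0.42 (SE 0.16) over the deeper ones. Neither passed edgeR's test (adjusted p = 0.983 and 0.196).

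The receptor of urokinase, Plaur (ENSMUSG00000046223), was detected at few counts. Controls held 0, 6.66, 11.9, 0.47 and 4.35 CPM, the first being 0 counts, which allows a level of up to 0.795 CPM before scaling (3 counts of the total, counting error only). Low-intensity libraries held 13.3, 7.87, 2.38, 1.90 and 34.0 CPM, and high-intensity libraries 9.08, 3.65, 21.3 and 2.75. These 3 groups overlapped broadly. Static libraries held 1.92, 0.37 and 4.19 CPM and actuated ones 0.26, 2.82, 1.10 and 0.85. The array groups overlapped with each other and with the controls. The log2 difference of Plaur was 0.73 (SE 0.84) for high intensity against control, −0.70 (SE 0.83) for high against low intensity, −0.77 (SE 0.98) for static against control and −0.93 (SE 1.04) for actuated against static over all libraries. In the same order it was 0.96 (SE 0.91), −0.40 (SE 0.89), −1.13 (SE 1.03) and −0.71 (SE 1.04) over the deeper ones. None passed edgeR's test (adjusted p = 0.949, 1.000, 1.000 and 1 over all libraries). These values depended on single libraries. High intensity against control was −0.12 without high intensity 3 and 1.40 without control 3, and high against low intensity was −1.55 without high intensity 3 and 0.16 without low intensity 5. Static against control was −0.09 without control 3 and −1.31 without static 4, and actuated against static was −1.69 without actuated 2 and −0.39 without static 4.

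**Figure D2:**
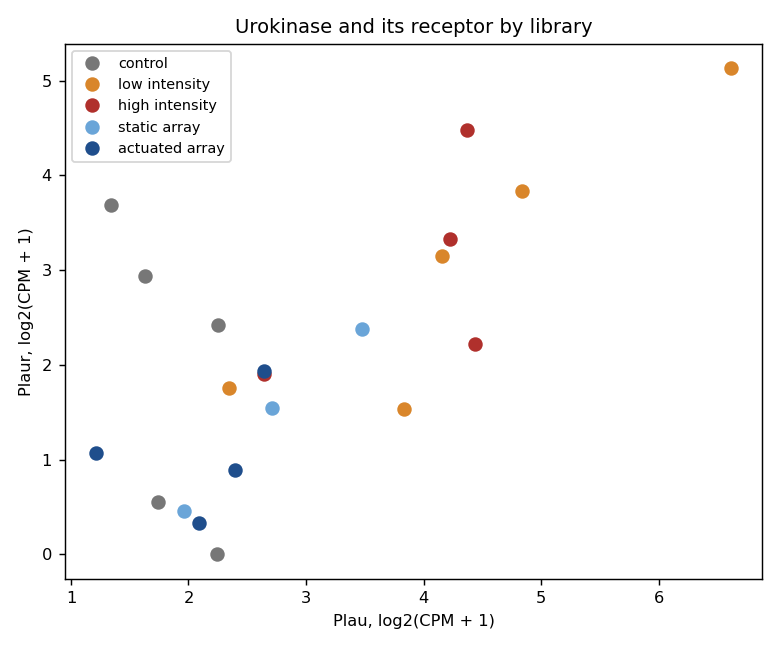
Plau (horizontal) against Plaur (vertical), both as log2(CPM + 1), in the 21 deeper libraries coloured by group. Low intensity 5 is highest in both genes, while 2 control libraries with low Plau have Plaur levels like those of intensity libraries.

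Low intensity 5 had the highest CPM of both Plau and Plaur. The part that spliced receptor mRNA has in its Plaur counts was not tested, as the next paragraph explains. Over the 21 deeper libraries log2 CPM of Plau and Plaur correlated with Pearson r = 0.63 (rho 0.55), with r = 0.46 after removing group means and r = 0.52 without low intensity 5. These are descriptions over libraries that share groups and depth, with no p. Control 3, in contrast, had 31 Plaur counts beside 4 Plau counts.

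The deposited tables also differ in what they say of Plaur. From a library's counts and TPM (a level per transcript length) the length that the authors' quantification used for a gene can be estimated. The scale was set by 328 to 981 genes per library that have a single annotated transcript. The estimate need not equal an annotated length. Its median was 2285 bases for Plau and 4154 for Serpini1, beside 2342 and 4091 for their main transcripts. For Plat it was 2554 beside 2525. It lay further off for Serpine2, at 1791 beside 2210, and for Lrp1, at 12566 beside 14888. For Plaur this implied length ranged from 192 to 1443 bases over the 17 deeper libraries with at least 5 counts, a 7.52-fold range, while it ranged at most 1.78-fold for each other member. It was at most 365 bases in 10 of these libraries, between 1369 and 1443 in 5, and in between in 2. The protein-coding transcript Plaur-201 has 1506 bases in GENCODE M21, and the shortest listed one, Plaur-205, has 347 and is classed as a retained intron, with 153 bases outside the exons of Plaur-201. Some implied lengths were under that of every listed transcript, so a short implied length is not assigned to any of them. The 10 libraries with a short implied length held 355 of the 457 Plaur counts, low intensity 5 among them at 339 bases. So most Plaur counts came from libraries whose TPM was computed with a length far under that of the coding transcript, and the part that spliced receptor mRNA has in them was not tested. No annotated gene overlaps Plaur, Plau, Plat or Serpine2 in that annotation.

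**Figure D3:**
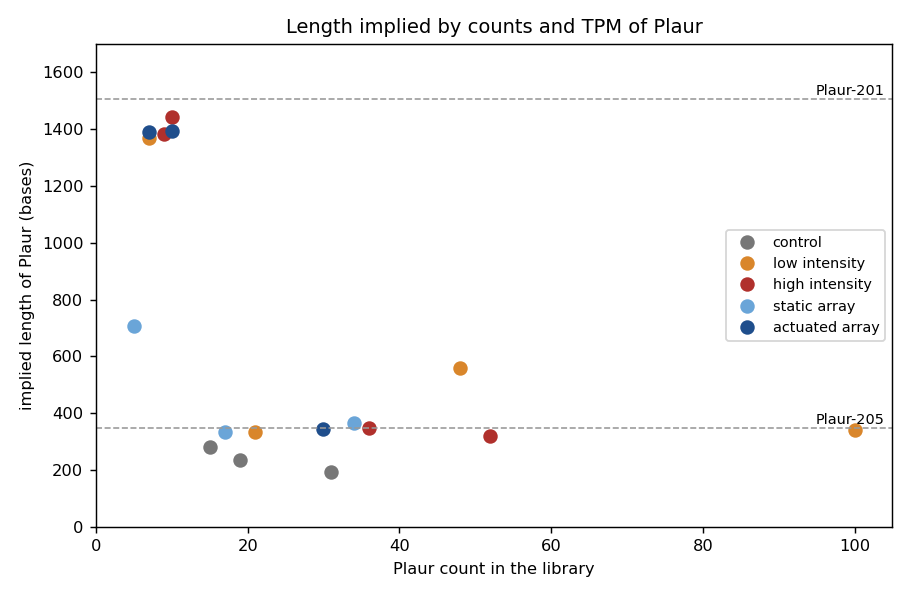
Implied length of Plaur in bases (vertical) against its count (horizontal) in the 17 deeper libraries with at least 5 counts, coloured by group. Dashed lines mark the annotated lengths of Plaur-201 (1506 bases) and Plaur-205 (347 bases) as a guide only, since implied lengths are not exactly on that scale. Libraries with 15 or more counts lie near or under the lower line, except 1 low-intensity library at 560 bases. Lying near a line does not identify that transcript.

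The same choice shows in the TPM of single libraries. High intensity 2, with 9 counts and an implied length of 1384 bases, was listed at 2.84 TPM, and high intensity 3, with 52 counts and 319 bases, at 60.2 TPM. Between these libraries the counts of Plaur differed 5.78-fold and its TPM 21.2-fold.

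Promoters were searched for short motifs, and that of Plaur is shown because it holds a match to the binding sequence of AP-1, the Fos and Jun factor known to act at urokinase system genes. RefSeq sequences (GRCm38.p6) were matched for 4 of the 6 members, Plaur, Serpine2, Serpini1 and Lrp1. None was matched for Plau, so the search cannot bear on why Plau and Plaur varied together in part. The 250 bases before the start of Plaur, chr7:24462233-24462482 on the plus strand, are printed 5′ to 3′ with the match TGACTCA in capitals, at bases −69 to −63 from the start.
Plaur: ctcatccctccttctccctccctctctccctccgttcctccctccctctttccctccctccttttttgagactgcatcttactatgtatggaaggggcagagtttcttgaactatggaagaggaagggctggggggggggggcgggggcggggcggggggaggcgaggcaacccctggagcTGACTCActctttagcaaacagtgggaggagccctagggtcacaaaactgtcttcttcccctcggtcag
On either strand, TGACTCA was present in 4.46% of 32851 promoter windows of this length, once in that of Plaur and in none of the other 3. The GC box GGGCGG was present in 32.7% of windows, 3 times in Plaur, 6 times in Serpine2, once in Lrp1 and not in Serpini1. TATAAA was present in 12.4% of windows and in none of these 4. A match is a description of letters and no evidence of binding.

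Among the inhibitors, protease nexin-1 was the more abundant. Serpine2 (ENSMUSG00000026249) was at 129, 102, 106, 153 and 150 CPM in controls and at 167, 170 and 227 CPM on the static array. Every deeper static library was above every deeper control, which is a description, since the share of all genes that separate so was not computed. The log2 difference (static minus control) was 0.46 (SE 0.34) over all libraries and 0.55 (SE 0.17) over the deeper ones, and neither passed edgeR's test (adjusted p = 1.000 and 0.128). Actuated libraries were at 164, 178, 194 and 200 CPM, within the static range or just under it, with a log2 difference (actuated minus static) of 0.15 (SE 0.37) over all libraries and −0.03 (SE 0.17) over the deeper ones (edgeR adjusted p = 1 for both). At low intensity Serpine2 was at 152, 225, 171, 145 and 114 CPM and at high intensity at 151, 147, 170 and 155. Both groups overlapped with the controls, and the high-intensity difference of 0.37 (SE 0.31) over all libraries and 0.28 (SE 0.16) over the deeper ones did not pass (edgeR adjusted p = 0.922 and 0.398). The static and control groups belong to different arms, so platform and all else that differs between the arms cannot be told apart there.

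Neuroserpin, an inhibitor made mainly by neurons, was lowest in the intensity groups. Serpini1 (ENSMUSG00000027834) averaged 88.8 ± 18.8 CPM in controls (SD, n = 5), 74.2 ± 11.7 at low intensity (SD, n = 5) and 67.7 ± 9.79 at high intensity (SD, n = 4). Array libraries averaged 85.1 ± 9.43 CPM when static (SD, n = 3) and 87.8 ± 3.68 when actuated (SD, n = 4). Control 3, at 58.1 CPM, was within the range of the high-intensity libraries (56.4 to 76.3), and the other controls were above it, at 84.6 to 106 CPM. The log2 difference of high intensity from control was −0.34 (SE 0.36) over all libraries and −0.39 (SE 0.15) over the deeper ones, and neither passed edgeR's test (adjusted p = 0.948 and 0.201). In the annotation the span of Serpini1 contains another gene record on the same strand (Gm37672), and the span of Lrp1 overlaps an antisense gene (Gm16217), so part of their counts may be shared.

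Lrp1 (ENSMUSG00000040249), the receptor that takes up protease and inhibitor complexes, had the most counts of the members. It was at 817, 867, 845, 795 and 796 CPM in controls, and at 880, 1125, 839, 840 and 1025 CPM at low intensity, where 2 libraries were inside the control range. At high intensity it was at 1103, 1004, 1095 and 901 CPM, above every deeper control, again a description without the share of all genes. The log2 difference of high intensity from control was 0.18 (SE 0.40) over all libraries and 0.32 (SE 0.11) over the deeper ones, and neither passed edgeR's test (adjusted p = 0.971 and 0.150).

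On the static array Lrp1 was at 581, 612 and 703 CPM, below every deeper control, likewise a description. The log2 difference (static minus control) was −0.49 (SE 0.45) over all libraries and −0.38 (SE 0.12) over the deeper ones, without passing edgeR's test (adjusted p = 1.000 and 0.146). Actuated libraries were at 648, 635, 602 and 844 CPM and overlapped with the static ones (log2 difference 0.33, SE 0.49, edgeR adjusted p = 1). In mean level the arms were thus ordered high intensity, low intensity, control, actuated and static for Lrp1, and of the neighbours in that order high with low intensity and actuated with static overlapped, as did low intensity with control, and control with actuated through actuated 4.

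**Figure D4:**
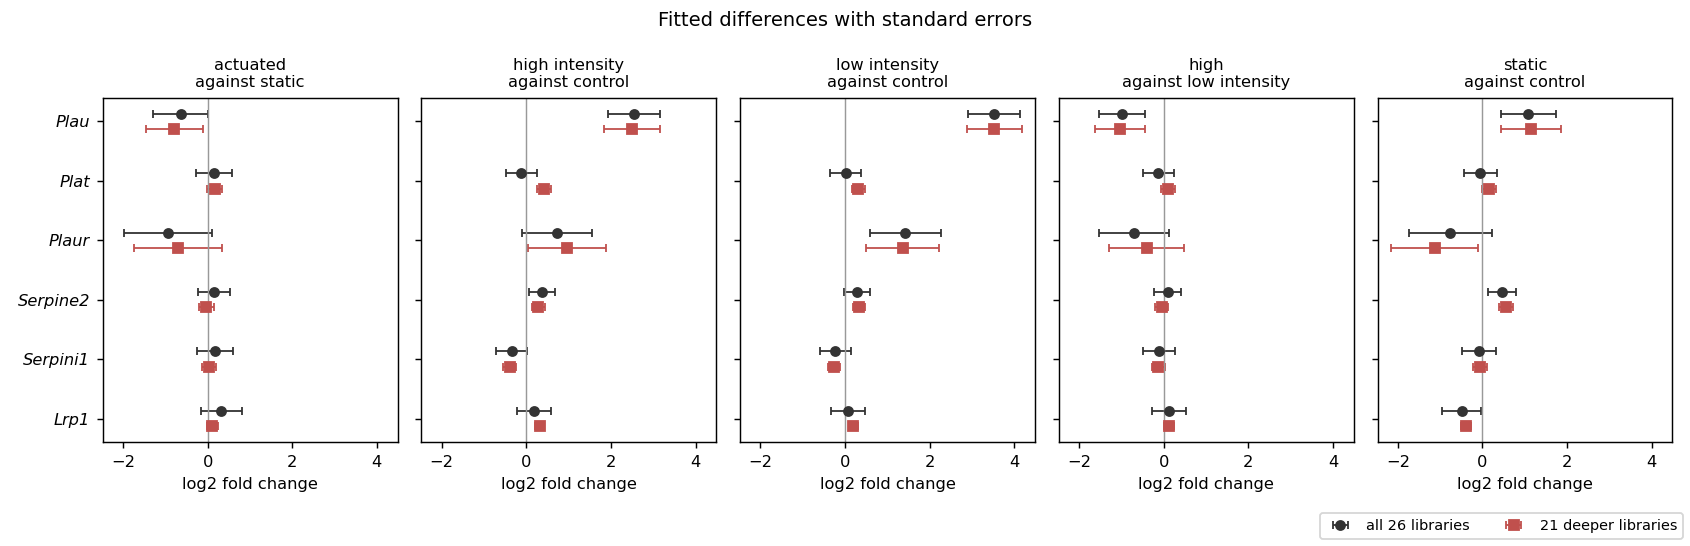
Fitted log2 fold change (horizontal) of each member in the 5 comparisons, with standard errors, over all 26 libraries (dark circles) and the 21 deeper ones (red squares). Plau stands at 3.52 for low intensity against control, the contrast it was chosen on, and the standard errors of Plat, Serpine2, Serpini1 and Lrp1 are smaller over the deeper libraries than over all 26.

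Counted over comparisons, edgeR called 0 of 6 members for actuated against static, where 0% of all genes were called with all libraries and 0% with the deeper ones. For high intensity against control it called 0 of the 5 members tested, beside 0.0402% of all genes with all libraries and 0.462% with the deeper ones, and for high against low intensity 0 of 5 beside 0% and 0%. For static against control it called 0 of 5 beside 0.0134% and 0.713%. With so few genes called, a count of 0 among 5 or 6 genes is near the background and is no result about the members. At an unadjusted p under 0.05, 0 members passed in each of these comparisons over all libraries. Over the deeper ones 3 of 5 passed for high intensity against control (Plat, Serpini1 and Lrp1) and 2 of 5 for static against control (Serpine2 and Lrp1), where 2349 and 1850 of 14730 genes did. The other tools, scalings and filters tried called 0 of these tested values, with a lowest adjusted p of 0.128 among 448 alternative values of the 21 tested differences.

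Levels can be compared between genes only per length. Deposited TPM are shares of all transcripts, and protein-coding genes held 24.1% to 44.5% of them in the deeper controls against 55.3% to 65.1% at low intensity, so TPM were rescaled here to sum to 1000000 over protein-coding genes. On that scale the median over the 21 deeper libraries was 219 for Serpine2, 140 for Lrp1, 44.2 for Serpini1, 40.4 for Plat, 12.6 for Plaur and 5.28 for Plau. Serpine2 was above Serpini1 in 21 of 21 libraries and was the highest member in 14, with Lrp1 highest in 6 and Plaur in 1, control 3. Serpini1 and Plat did not keep an order, Plat being higher in 9 of 21, and neither did Plau and Plaur, with Plau higher in 9. All these values rest on the lengths used, that of Plaur most of all. The implied length also ranged from 1307 to 2152 bases for Serpine2 and from 9133 to 15791 for Lrp1. Which of these 2 was the highest member in a library may therefore depend on it.

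**Figure D5:**
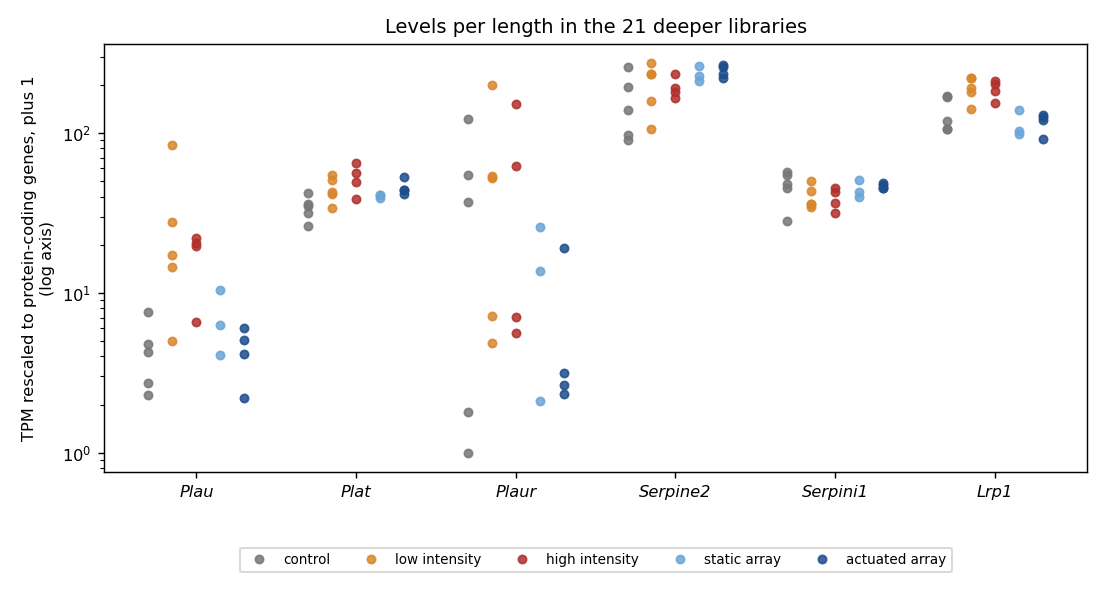
TPM rescaled to protein-coding genes, plus 1, on a log axis, for the 6 members in the 21 deeper libraries. Each point is a library and colours are groups. Serpine2 and Lrp1 lie highest, Serpini1 and Plat below them, and Plau and Plaur span the widest range.

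The tissue activator was the main activator transcript in nearly every library. Plat exceeded Plau per length in 20 of 21 deeper libraries, and the exception was low intensity 5, where Plau made up 71.6% of the summed TPM of both activators. In controls that share was between 3.11% and 15.8%, with a median of 8.80%. It was between 8.72% and 71.6% at low intensity (median 24.97%), and between 10.3% and 33.8% at high intensity (median 24.9%). On the arrays it was 7.19% to 19.8% when static and 2.90% to 8.82% when actuated. The summed TPM of the 2 inhibitors was above that of the 2 activators in every deeper library, from 1.20-fold in low intensity 5 to 8.40-fold in control 5. These shares contain Plau and are a description. They also rest on the implied lengths. That of Plau was 1292 bases in control 1, the library with the 15.8% share, beside a median of 2285. That of Serpine2 was 1307 bases in control 5, beside a median of 1791.

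Markers of other cell types moved with urokinase in part. All 8 fibroblast or mesenchymal markers were detected, led by Col1a1, Col3a1 and Col1a2, and their summed level was 343 to 919 CPM in controls, 270 to 2528 at low intensity, 835 to 2391 at high intensity, 245 to 833 on the static array and 163 to 599 on the actuated one. Low intensity 5, highest in Plau, had a sum of 1033, below that of low intensity 2 at 2528, and low intensity 1, second in Plau within its group, had 371, within the control range. Over the deeper libraries log2 of that sum and of Plau correlated with r = 0.62 (n = 21, no p). Their part in the level of Plau was not tested.

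All 8 skeletal muscle markers had counts, but Des made up most of the sum and Myog and Ckm were at 0 in 18 of 21 deeper libraries each. The sum was 8.46 to 69.3 CPM in controls, 6.47 to 140 at low intensity, 16.5 to 172 at high intensity, 6.70 to 108 on the static array and 4.64 to 25.1 on the actuated one. It correlated with Plau at r = 0.76, and the summed level of the 6 neuron markers, 1972 to 3122 CPM, at r = −0.75 (n = 21, no p). Low intensity 5 had a muscle marker sum of 140, highest in its group, and its neuron sum was 2340. Since Des made up most of the muscle sum, its correlation is mainly that of Des, and the presence of muscle cells was not tested. The part of muscle cells or neurons in the level of Plau was likewise not tested.

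Markers of blood-borne and vessel cells were detected in part, at levels like those of Plau and Plaur. Of the macrophage or microglia list, 5 of 6 markers were detected, Adgre1 was at 0 in 21 of 21 deeper libraries and Aif1 in 19, while Csf1r had a median of 3.31 CPM and reached 29.0. The sum was 0.29 to 15.4 CPM in controls, 0.34 to 29.3 at low intensity, 6.89 to 15.5 at high intensity, 1.02 to 5.55 on the static array and 1.22 to 8.17 on the actuated one. All 5 endothelial markers were detected, with Cldn5 at 0 in 20 libraries and Tek in 13, while Kdr had a median of 5.43 CPM and Cdh5 of 4.97. The sum was 2.69 to 27.7 CPM in controls, 0.68 to 22.1 at low intensity, 10.9 to 34.6 at high intensity, 6.56 to 26.4 on the static array and 9.79 to 23.3 on the actuated one. Over the deeper libraries log2 of the macrophage or microglia sum correlated with Plau at r = −0.11 and that of the endothelial sum at −0.19. The astrocyte or radial glia and motor neuron sums gave −0.35 and −0.62. Oligodendrocyte lineage, epithelial and pluripotent markers gave −0.14, −0.05 and −0.08 (n = 21, no p). The part of such cells in the members' levels was not tested.

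Genes whose pattern was most like that of a member were ranked by Pearson r of log2 CPM over the 21 deeper libraries, among 11330 protein-coding genes. For Plau they were Hspb1 (r = 0.92, and 0.86 within groups), which encodes a small heat shock protein, Pcolce (0.91 and 0.82), an enhancer of procollagen processing, the actin crosslinker Flnc (0.90 and 0.83), Zfp469 (0.90 and 0.80) and talin 1, Tln1 (0.90 and 0.85), which links integrins to actin. Among the genes nearest to Plaur were Cad (0.86) and the actin crosslinker Actn1 (0.84). For Plat they were Prom1 (0.76), Fastk (0.72) and Zcchc4 (0.72), a looser likeness than for any other member. The nearest genes of Serpine2 were Cebpd (0.89), Egln3 (0.88) and Selenop (0.87), those of Serpini1 were Mff (0.84), Sema4f (0.82) and Dzip1 (0.81), and those of Lrp1 were Antxr2 (0.89), the matrix proteoglycan Vcan (0.88) and Rnf213 (0.87).

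Among the members themselves, Plaur and Serpini1 correlated at r = −0.72 (−0.61 within groups), with −0.74 over the 14 biochemical libraries and 0.03 over the 7 array ones. Lrp1 correlated with Plau at 0.61 (0.49 within groups and 0.31 on the arrays), with Plaur at 0.62 (0.39 and 0.02) and with Serpini1 at −0.59 (−0.37 and −0.32). Plat correlated with none of the others beyond 0.31 in the positive direction and with Serpini1 at −0.49. All these values are over 21 libraries that share groups, with no p.

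The substrate of the activators was barely transcribed in the spheroids. Plg, which encodes plasminogen, had 11 counts over 6 of 26 libraries and could not be fitted, and the fibrinogen genes Fga, Fgb and Fgg had 8, 13 and 22 counts. Other genes of the pathway were taken from a list of 35 chosen by role, of which 23 had enough counts to be fitted. In each of the 5 comparisons edgeR called 0 of the 23, with all 26 libraries and with the 21 deeper ones. At an unadjusted p under 0.05, 6 of 23 passed for high intensity against control with all libraries and 8 with the deeper ones, where 1049 of 14907 and 2349 of 14730 genes did. In the same order of fits, 1 and 7 passed for low intensity against control (780 and 2237 of all genes), 0 and 3 for high against low intensity (434 and 1131), 2 and 5 for static against control (785 and 1850) and 1 and 0 for actuated against static (575 and 56). The list's median log2 difference over all libraries was 0.31 for high intensity against control, beside −0.05 for all genes. It was 0.37 for low intensity against control, beside −0.05, and 0.20 for static against control, beside 0.09. Actuated against static gave 0.10 beside −0.02, and high against low intensity 0.04 beside −0.01. Over the deeper libraries the list's medians were 0.25, 0.37, 0.03, 0.01 and −0.01 in that order. Whether the list differs from all genes was not tested.

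Surface receptors of plasminogen were present at all conditions. Anxa2 and S100a10, which form a complex that binds plasminogen and the tissue activator, had median levels over the deeper libraries of 108 and 82.9 CPM. Anxa2 was at 71.1 to 109 CPM in controls, 98.9 to 214 at high intensity and 108 to 180 at low intensity, and its log2 difference of high intensity from control was 0.45 (SE 0.41) over all libraries and 0.62 (SE 0.20) over the deeper ones (edgeR adjusted p = 0.934 and 0.123). The plasminogen receptor Plgrkt was low, with a median of 6.62 CPM, and Eno1, the glycolytic enolase that also binds plasminogen, had a median of 1127 CPM.

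Integrins pair with the urokinase receptor at the cell surface. Itgb1, the beta 1 chain, was at 162 to 226 CPM in controls, 234 to 433 at low intensity and 240 to 386 at high intensity. Neither intensity group overlapped with the controls, which is a description, since the share of all genes that separate so was not computed. Its log2 difference of low intensity from control was 0.70 (SE 0.38) over all libraries and 0.68 (SE 0.17) over the deeper ones, and neither passed edgeR's test. That of high intensity from control was 0.75 (SE 0.38) over all libraries and 0.66 (SE 0.18) over the deeper ones (edgeR adjusted p = 0.715 and 0.0718). Itgav, the alpha v chain that binds vitronectin, differed by 0.25 (SE 0.32) and 0.19 (SE 0.13) in the same contrast (edgeR adjusted p = 0.952 and 0.501). Vitronectin itself, Vtn, had 95 counts in 14 libraries and could not be fitted. Lrpap1, the chaperone of Lrp1, was at 93.2 to 183 CPM over the deeper libraries, with a log2 difference of high intensity from control of −0.16 (SE 0.36) over all libraries (edgeR adjusted p = 0.973).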

How the data were processed

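Sequencing libraries were made from total RNA with a low-input kit that primes fragmented RNA, 4 ng per sample except 8 samples of lowest concentration. The authors deposited expected counts (estimated counts, written as whole numbers and not scaled for depth) and TPM values. The submitters' processing notes name BWA 0.7.12-r1039, bedtools 2.25.0, STAR and Salmon and the builds mm10, hg19 and GRCm39, with no role stated, so which annotation was used, and whether counting used the strand, is not stated. Low and high intensity columns were matched to samples by letter and number, and 0 columns of sample values were left out.

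Rounded counts were fitted with edgeR 4.0.16 (R 4.3.3): 26 libraries, 1 coefficient per group, filterByExpr (14907 genes kept), TMM factors, a quasi-likelihood F-test per gene and Benjamini-Hochberg adjustment over all genes at 0.05. The code of the fit was run on simulated counts for actuated against static, modelled on the 21 deeper libraries. Large changes were set there in well-covered genes only. The simulated spread was near that of the deeper fit and under that of the 26-library fit. The simulation therefore says nothing of power in the main fit or for genes of low count. The fit over 21 libraries with over 1000000 protein-coding counts (14730 genes) and fits with limma 3.58.1 and DESeq2 1.42.0 were alternatives, with other filters and scalings and each library left out. No 2 libraries agreed within sampling noise. Libraries with the same replicate number were on average no more alike than others, which does not exclude pairing between particular groups.

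The members, the pathway list, the markers, the depth limit and the tests were chosen with earlier results of these data known. Named genes are the 6 members, Plg, Plgrkt, Anxa2, S100a10, Vtn and the 4 other pathway genes of highest median TPM, and the 5 (Plau) or 3 genes most like each member with a mean of at least 5 CPM. Genes that met this rule and are not named are not reported here. Fibrinogen genes were named after their counts were seen. The limit given for a count of 0 covers counting error only, while SDs and standard errors measure the spread between libraries.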

Additional observations from a re-analysis of the deposited data

Results flagged for a closer look

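Of 24 combinations of gene and group with at least 4 deeper libraries, 2 held a library far from the others by Dixon's test at the 95% level, which chance gives in about 1 of 20. The first was Plau in low intensity 5, at 96.9 CPM where the others of its group were at 4.09 to 27.7; the genes were chosen on these values, so this is a description. The second was Plat in actuated 2, at 59.2 CPM where the others were at 48.0 to 49.7.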

How the results depend on the processing

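Of 448 alternative values for tested differences, 29 changed sign and none passed a threshold. Of those for described ones, 20 changed sign (11 of Plat, 5 of Lrp1 and 1 each of Serpine2 and Serpini1 for low intensity against control, and 2 of Plau for high against low intensity), and 10 moved by more than the spread between libraries. The count of 1 member called for low intensity against control became 0 with limma voom, with the replicate block, on log2(TPM + 1), on log2(TPM + 0.1), and without low intensity 5 (range 0 to 1 over left-out libraries). The replicate numbers are shared by label, and over all groups same-numbered libraries were on average no more alike than others. The mean correlation was −0.0026 over 31 same-numbered pairs (4 over 0.1) and 0.00065 over 144 differently numbered pairs (19 over 0.1). Pairing between particular groups was not tested. The block also moved Serpini1, static against control, from −0.078 to 0.090, and it changed no other call. Over the deeper libraries these log2 differences changed sign: Serpine2 actuated against static to −0.031, Plat high intensity against control to 0.42, Plat and Serpine2 high against low intensity to 0.11 and −0.050, and Plat static against control to 0.16. With voom they were 0.36 for Plat high intensity against control, −0.13 for Serpine2 high against low intensity and 0.24 for Plat static against control. On log2(TPM + 1) and log2(TPM + 0.1), static against control became 0.76 and 0.81 for Plat, 0.69 and 0.75 for Serpini1, 0.40 and 0.41 for Lrp1, and on the latter 0.90 for Plaur. Both scales use the deposited TPM, not those rescaled to protein-coding genes. In the deeper libraries these genes held 24.1% to 44.5% of TPM in controls and 50.1% to 61.1% on the static array. On the rescaled scale the control and static medians were 33.9 and 39.8 for Plat, 47.0 and 41.8 for Serpini1, 118 and 101 for Lrp1 and 35.9 and 12.6 for Plaur. The cause of the changed signs was not tested. Leaving out each library in turn gave −0.033 to 0.34 for Serpine2 actuated against static, −0.32 to 0.12 for Plat and −0.12 to 1.40 for Plaur high intensity against control, and, for high against low intensity, −0.33 to 0.045 for Plat, −1.55 to 0.16 for Plaur, −0.048 to 0.26 for Serpine2, −0.29 to 0.048 for Serpini1 and −0.11 to 0.24 for Lrp1. It gave −0.14 to 0.17 for Plat and −0.21 to 0.064 for Serpini1 static against control, and −0.06 to 0.29 for Lrp1 low intensity against control. Without low intensity 5 the Plau difference from control was 2.51, and without static 4 the actuated against static value of Plau was −0.08. Depth limits Plau and Plaur most, at 4 to 13 and 0 to 31 counts per deeper control.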
